A study of Mus musculus with 9 samples.

Results

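Hox genes encode homeodomain transcription factors that give cells a position along the head-to-tail axis, and all 39 mouse members were followed here in RNA from spinal cord. They were taken by name, as every row whose symbol is Hox followed by cluster letter a, b, c or d and a paralog number from 1 to 13 with nothing after it, which gave 39 of the 40879 rows of the deposited tables. Paralogs are the copies of one ancestral gene in the clusters, and members with the same number form a paralog group. The cord came from male mice in 3 groups of 3 libraries. One group had a sham operation. A second had spared nerve injury (SNI), in which branches of the sciatic nerve are cut and one is left whole, as a model of neuropathic pain. The third had SNI and LDN193189, a small-molecule inhibitor of the type I receptor kinases of bone morphogenetic proteins. No allele or transgene was named, and the labels used here give neither the age of the mice, nor the segment or side of the cord, nor the time after injury or the dose. The extraction text speaks of cell lines although the tissue is labelled spinal cord. The tables name their columns by a letter and a number, and S was read as sham, N as SNI and L as SNI with LDN193189 from the names alone. If S meant SNI, the comparisons between groups would change direction or place.

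In the embryo the Hox genes of a cluster are switched on in the order in which they lie on the chromosome, so that low paralog numbers reach the hindbrain and high numbers only the tail end of the body. The domains are kept in part in the adult cord, where paralog groups 4 to 9 mark cervical and thoracic levels, group 10 is known for the lumbar cord and its limb motor neurons, and groups 11 to 13 mark the lowest lumbar, sacral and caudal levels. Hox proteins bind DNA together with cofactors of the Pbx, Meis and Pknox families, and Polycomb and Trithorax proteins hold the clusters silent or active.

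The promoters of 3 genes are shown because these genes carry the contrast described below: Hoxb8 was the most abundant member and steady across libraries, while Hoxd10 and Hoxa11 were far lower in 1 library than in the rest. Each line gives the 250 bases before a transcript start in RefSeq on GRCm38.p6, on the strand of the gene; the Hoxb8 and Hoxd10 genes have further starts upstream, so these windows lie inside their RefSeq spans. The Hoxb8 window lies at chr11:96281655-96281904 on the plus strand, the Hoxd10 window at chr2:74691641-74691890 on the plus strand, and the Hoxa11 window at chr6:52245811-52246060 on the minus strand. Capitals mark matches on either strand to TAAT, the core that most homeodomains bind, or to TTTAT, a core of sites bound by posterior Hox and Cdx proteins; the motifs can overlap.
Hoxb8: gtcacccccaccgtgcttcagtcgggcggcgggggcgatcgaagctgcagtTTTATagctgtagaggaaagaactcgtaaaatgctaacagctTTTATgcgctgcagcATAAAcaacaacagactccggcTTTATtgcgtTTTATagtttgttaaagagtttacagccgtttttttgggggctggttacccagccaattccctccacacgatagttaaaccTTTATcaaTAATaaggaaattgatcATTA
Hoxd10: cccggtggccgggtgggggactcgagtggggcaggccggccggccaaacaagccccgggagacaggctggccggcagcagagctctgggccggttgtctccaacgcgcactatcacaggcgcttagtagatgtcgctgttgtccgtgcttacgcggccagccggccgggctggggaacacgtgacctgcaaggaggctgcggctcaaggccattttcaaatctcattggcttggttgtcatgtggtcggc
Hoxa11: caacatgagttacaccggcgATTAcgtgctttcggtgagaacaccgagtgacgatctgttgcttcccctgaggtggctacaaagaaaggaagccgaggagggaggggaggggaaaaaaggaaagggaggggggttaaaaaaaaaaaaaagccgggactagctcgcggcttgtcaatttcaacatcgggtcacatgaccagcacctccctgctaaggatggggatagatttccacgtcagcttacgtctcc

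The Hoxb8 window held 6 TTTAT matches and 2 TAAT matches with 44.4% G and C. The Hoxd10 window held neither motif and 65.6% G and C. The Hoxa11 window held 1 TAAT match and 52% G and C. RefSeq windows were listed for 22 of the 39 Hox genes, 24 windows in all. TAAT was present in 18 of these 24 (75%) and in 54.9% of all 32841 promoter windows of the same length, and TTTAT in 9 of 24 (37.5%) and in 37.3% of all. Among the 9 windows of paralog groups 10 to 13, 6 held TAAT and 4 held TTTAT. The Hox windows had a median of 12.5 CG pairs, against 6 over all windows.

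Of the 39 genes, 29 had a read count in at least 1 library and 10 were listed at 0 in all 9. The genes with counts were 6 of 11 in the Hoxa cluster on chromosome 6, 7 of 10 in Hoxb on chromosome 11, 9 of 9 in Hoxc on chromosome 15 and 7 of 9 in Hoxd on chromosome 2. Those at 0 were Hoxa4, Hoxb4, Hoxd4, Hoxa5, Hoxb5, Hoxa6, Hoxb6, Hoxd8, Hoxa9 and Hoxa10, all but 1 of them from groups 4 to 9. In RefSeq 8 of the 10 lie wholly inside the span of another gene, and none of the 29 with counts do. Hoxa4, Hoxa5 and Hoxa6 lie inside Hoxa3, Hoxb4 inside Hoxb3, Hoxd4 inside Hoxd3, Hoxb5 and Hoxb6 inside the antisense gene Hoxb5os, and Hoxd8 inside Gm38462. For Hoxa9 and Hoxa10 the tables hold a row for the joined transcript Hoxa10-hoxa9, which ran from 0.717 to 1.08 FPKM (fragments scaled to gene length and to the library total). These 10 genes are therefore described as listed at 0, and not as silent. Whether reads of the genes inside them count toward Hoxa3, Hoxb3 and Hoxd3 was not tested, and reads in the shared span of Hoxd10 and Hoxd11 cannot be told apart.

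Sequencing depth was even, from 33432776 to 37190467 counts per library. A total of 18245 genes had enough counts to be tested, and 27 of the Hox genes were among them. Hoxb1 and Hoxd12 were not, with 20 and 22 counts in all. Cord markers were present: neuronal markers such as Snap25 summed to 4546 to 5223 CPM (counts set to 1 common total per library) and glial markers such as Mbp to 23242 to 26535 CPM. Forebrain and midbrain position genes summed to 9.86 to 14.4 CPM, with Otx1, Otx2 and Six3 among those listed at 0. Aqp4, an astrocyte gene, was also listed at 0, so a 0 in these files does not show that a gene is absent. Other tissue was present in uneven amounts. Schwann cell and nerve root markers summed to 866 to 6185 CPM in sham, 287 to 891 in SNI and 761 to 1862 in SNI+LDN193189, and skeletal muscle markers to 858 CPM in sham replicate 1 against 81.3 to 116 elsewhere.

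One library stood apart in the Hox genes and is described before the levels. In SNI+LDN193189 replicate 3 all 10 tested genes of paralog groups 10 to 13 had the lowest level of the 9 libraries, with Hoxa13 tied at 0 with SNI replicate 1. Summed FPKM of groups 10 to 13 was 29.4 in that library, against 60.9 to 86.0 in the other 8. By paralog group its level was 50.3% of the median of the others for group 10, 20.7% for group 11, 13.4% for group 12 and 5.30% for group 13. Groups 6 to 9 stood at 96.5%, 115%, 114% and 109%. Of the first groups, 1 stood at 54.2%, 2 at 95.8%, 3 at 91.1%, 4 at 68.8% and 5 at 89.1%, groups 1 and 4 at low levels throughout. From group 10 on the shortfall grew with paralog number, groups 1 and 4 were also low, and Hoxa7, Hoxc8 and Hoxc9 had their highest level in the same library. Among the lower paralog groups Hoxd1, Hoxb3 and Hoxd9 also had their lowest level there, Hoxd1 at 0.476 FPKM against 0.555 to 1.08 and Hoxd9 at 9.43 against 9.58 to 12.4.

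**Figure D1:**
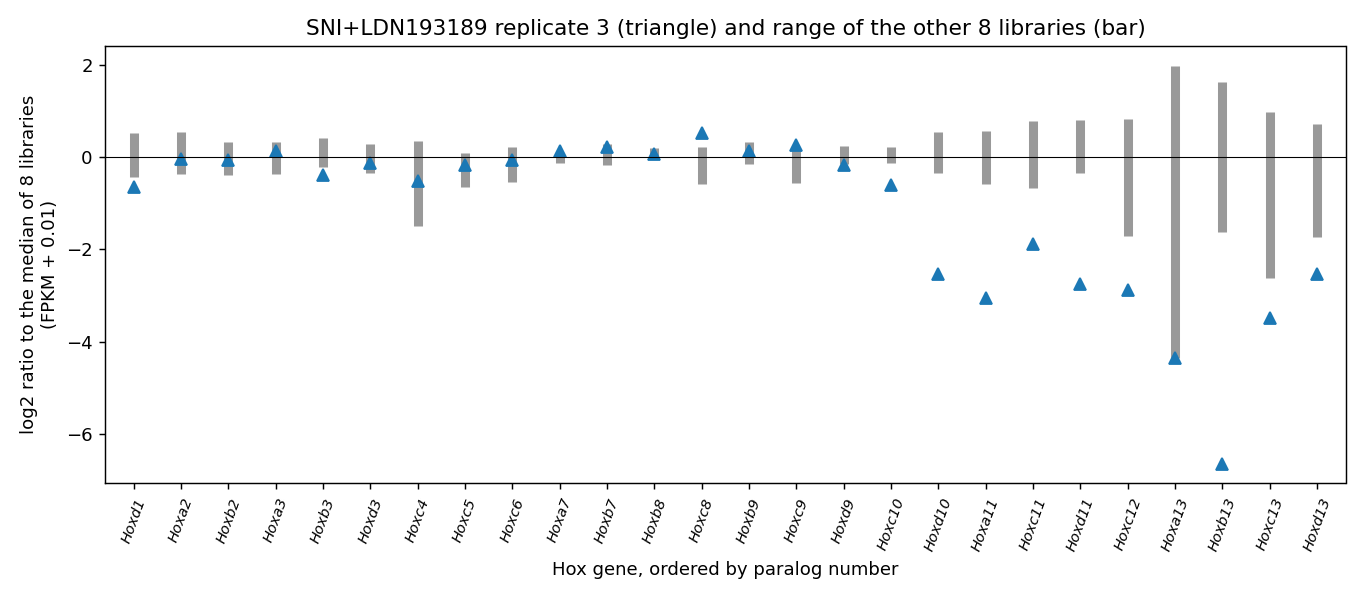
Level of 26 of the 27 tested Hox genes in SNI+LDN193189 replicate 3 (triangle) and the range of the other 8 libraries (grey bar), as log2 of the ratio to the median of those 8, after adding 0.01 FPKM; genes run by paralog number. The triangles lie below the bars from Hoxc10 onward, except for Hoxa13, whose bar also reaches a count of 0.

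Among 15219 genes with a median above 1 CPM, 13 were lower in that library by more than 1 on the log2 CPM scale than in every other library. Of the 13, 6 were Hox genes, namely Hoxb13, Hoxd11, Hoxa11, Hoxd10, Hoxc11 and Hoxc12. Another was Hotair, a noncoding RNA of the Hoxc cluster, at 0.514 FPKM against 1.54 to 5.86. No other library had a Hox gene among the genes set apart in this way, in either direction. Those other libraries had 1 to 16 genes set apart lower and 0 to 108 higher, the 108 in sham replicate 3. In SNI+LDN193189 replicate 3 itself 4 genes were higher by that margin, namely Plin4, Itgad, Arrdc2 and Sgk1. Hoxa11os, antisense to Hoxa11, stood at 0.436 FPKM in the library against 0.815 to 2.67. The marker sums of other tissues in it were 761 CPM for nerve root (others 287 to 6185), 557 for meningeal fibroblasts (others 459 to 1360) and 116 for muscle, and none of the defining markers of these lists was at 0. Sensory ganglion markers summed to 92.0 CPM, the lowest of the 9 (others 101 to 192). The largest members of that list, Prph at 45.4, Calca at 24.9 and Pou4f1 at 9.65 CPM, were lowest there. Scn10a, at 0.114, and Avil, at 1.08, were not, with lowest values elsewhere of 0.0561 and 0.957. The part of these tissues in the low values was not tested. In bulk tissue, fewer cells with a gene and less RNA per cell cannot be told apart.

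The levels peaked at paralog group 8. Hoxb8, a gene of thoracic and lumbar cord known for its role in sensory circuits and grooming, was the most abundant, with a mean of 62.4 FPKM. It took 23.9% of the summed Hox FPKM, and the 5 highest genes took 64.6%. After it came Hoxc10 at 36.6, Hoxb9 at 32.7, Hoxc8 at 19.6, Hoxd3 at 17.3 and Hoxd10 at 14.3 FPKM. Of the 26 pairs of neighbours in the order of the 27 tested genes, 23 overlapped over the libraries and so were not told apart by their spread. The others were Hoxb8 above Hoxc10, Hoxb9 above Hoxc8 and Hoxa3 above Hoxc4. By paralog group the mean sum was 4.46 FPKM in group 2, 19.5 in group 3, 0.287 in group 4 and 1.32 in group 5, groups 4 and 5 with most members listed at 0. It was 8.86 in group 6, 26.4 in group 7, 82.0 in group 8, 49.8 in group 9 and 50.9 in group 10, then 9.71, 3.95 and 3.01 in groups 11, 12 and 13. The Hoxb cluster held 43.6% of the sum and the Hoxa cluster 6.86%.

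**Figure D2:**
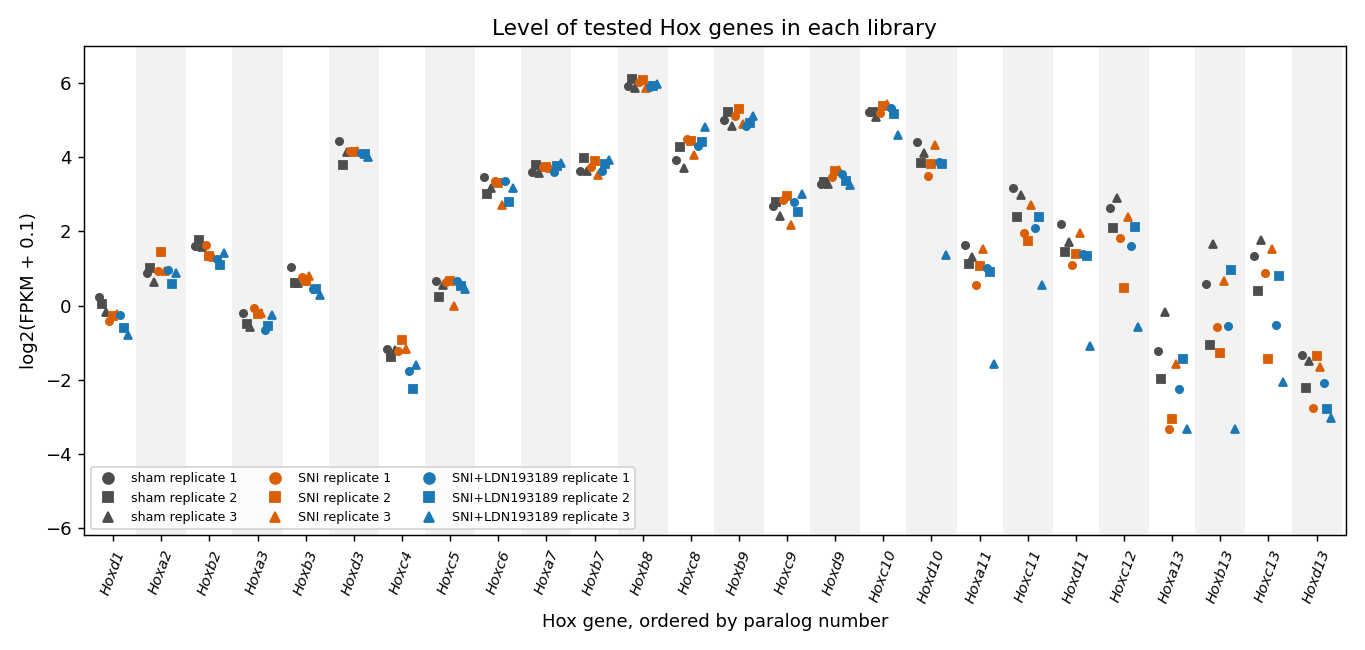
Level of 26 of the 27 tested Hox genes in each of the 9 libraries as log2(FPKM + 0.1), ordered by paralog number, with colour for the group and shape for the replicate. Hoxb8 is highest in every library, and the points of a gene spread most widely from Hoxd10 onward, where the triangle of SNI+LDN193189 replicate 3 is lowest.

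The rostral and middle members differed less between libraries than those of groups 11 to 13. Hoxd3, a neck gene, was at 21.4, 13.8 and 17.4 FPKM in sham replicates 1 to 3, 17.8, 17.7 and 18.0 in SNI, and 17.2, 16.8 and 16.0 in SNI+LDN193189. Hoxc5, which is needed for the phrenic motor neurons of the diaphragm, was at 1.49, 1.08 and 1.36, then 1.46, 1.49 and 0.894, then 1.49, 1.34 and 1.26. Hoxc6, of forelimb motor neurons, was at 10.9, 7.89 and 8.83, then 10.1, 9.72 and 6.42, then 10.1, 6.84 and 8.95. All groups overlap in Hoxc5 and Hoxc6, and SNI replicate 3 is the lowest library in both. Hoxb7 was at 12.2, 15.6 and 12.3, then 13.3, 14.8 and 11.3, then 12.2, 13.9 and 15.0. Hoxa7 stayed between 11.9 and 14.2 over all libraries, and Hoxc9, which sets thoracic motor neurons apart from those of the limbs, between 4.45 and 7.91. Hoxa2, a hindbrain gene, ranged from 1.39 to 2.63 FPKM, with its highest value in SNI replicate 2.

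Values by library show the contrast between the middle and the end of the series. In the order of replicates 1 to 3, Hoxb8 was at 60.0, 69.3 and 58.3 FPKM in sham, 65.5, 67.7 and 58.6 in SNI, and 58.8, 59.9 and 62.9 in SNI+LDN193189. Hoxb9, of thoracic cord, was at 32.2, 36.9 and 28.8 in sham, 34.7, 39.1 and 29.9 in SNI, and 28.5, 30.5 and 34.2 in SNI+LDN193189. The groups overlap in both genes, and no library stands apart. Hoxc10, which with its paralogs specifies lumbar motor neurons, was at 37.2, 37.01 and 33.96 in sham, 36.7, 41.3 and 43.0 in SNI, and 40.4, 35.9 and 24.3 in SNI+LDN193189. Hoxd10 was at 21.0, 14.1 and 17.3, then 11.2, 13.9 and 20.1, then 14.5, 13.9 and 2.45, the last from 239 counts. The third SNI+LDN193189 library is the low one in both, at 65.4% of the median of the others for Hoxc10 and 17.1% for Hoxd10.

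Further down the axis Hoxa11, known from the limb and kidney as well as the lower cord, was at 3.01, 2.09 and 2.38 FPKM in sham, 1.36, 1.99 and 2.79 in SNI, and 1.93, 1.77 and 0.238 in SNI+LDN193189. Hoxd11 gave 4.49, 2.64 and 3.20, then 2.03, 2.50 and 3.75, then 2.50, 2.45 and 0.373. In both genes sham replicate 1 is highest and SNI+LDN193189 replicate 3 lowest. Hoxc11 gave 8.83, 5.08 and 7.74, then 3.80, 3.24 and 6.48, then 4.19, 5.17 and 1.38. Hoxc12 gave 6.08, 4.14 and 7.42, then 3.43, 1.29 and 5.11, then 2.96, 4.27 and 0.565. Sham replicates 1 and 3 and SNI replicate 3 are the highest 3 libraries for both. Hoxc13, a gene also needed for hair and nails, gave 2.43, 1.21 and 3.31, then 1.75, 0.265 and 2.77, then 0.591, 1.63 and 0.141. Hoxb13, a gene of the tail end of the body, gave 1.39, 0.380 and 3.08, then 0.569, 0.315 and 1.48, then 0.589, 1.86 and 0. A count of 0 at that depth allows up to 3 counts or 0.0626 FPKM, and limits of this kind cover counting error alone. Group 13 thus differed severalfold between libraries of the same group, also outside the low library.

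The 3 libraries with the highest sum of groups 10 to 13 had the lowest Hoxc8. Hoxc8, which in the cord shapes brachial motor neurons, was at 15.0, 19.2 and 12.97 FPKM in sham, 22.6, 21.4 and 16.6 in SNI, and 19.5, 21.2 and 27.9 in SNI+LDN193189. The sums of groups 10 to 13 were 85.1, 67.0 and 79.5 in sham, 60.9, 65.1 and 86.0 in SNI, and 67.9, 67.2 and 29.4 in SNI+LDN193189. Sham replicates 1 and 3 and SNI replicate 3 thus combine a high sum with low Hoxc8, and SNI+LDN193189 replicate 3 the reverse. Other middle genes did not all follow: Hoxc6 was highest in sham replicate 1, at 10.9 FPKM. The sum of groups 6 to 8, which includes Hoxc8, was 110, 104 and 106 FPKM in those 3 libraries and 113 to 129 elsewhere. In those 3 libraries the nerve root markers summed to 866, 6185 and 891 CPM, within the range of the others in 2 of them, and their part was not tested.

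**Figure D3:**
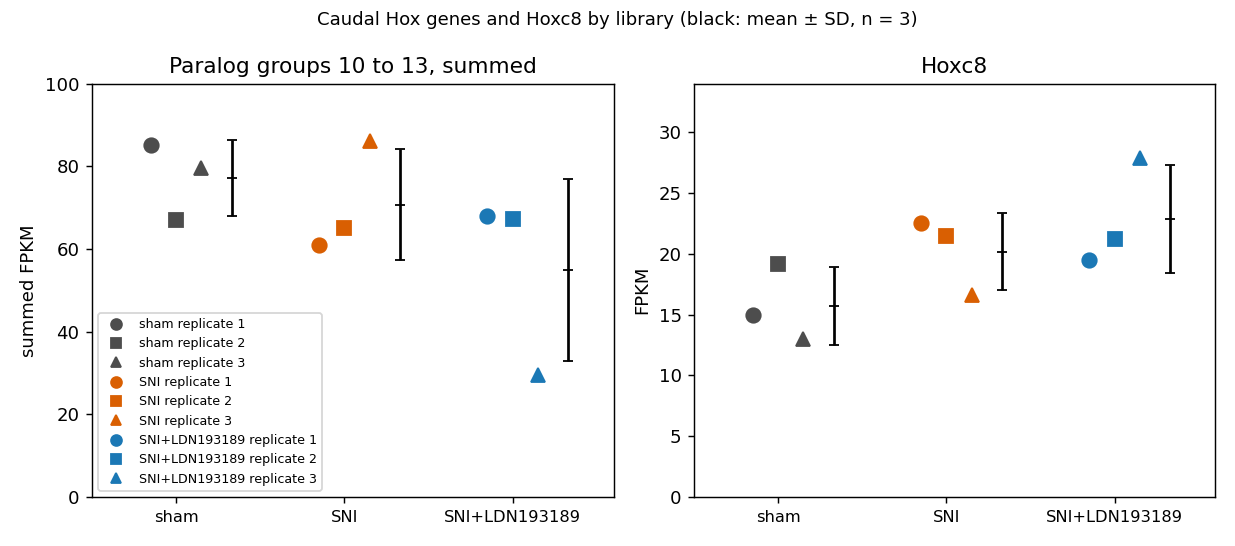
Summed FPKM of paralog groups 10 to 13 (left) and FPKM of Hoxc8 (right) in each library, by group, with black bars for the mean and SD of 3 libraries. SNI+LDN193189 replicate 3 has the lowest sum, 29.4, and the highest Hoxc8, 27.9.

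An index of axial level was formed as log2 of the summed FPKM of groups 10 to 13 over that of groups 4 to 9. It is a description, with no test. All but 1 of the 10 genes listed at 0 belong to groups 4 to 9, so that sum rests on the members with counts. The labels give no cord segment to set the index against. The index was -0.91, -1.43 and -0.91 in sham, -1.56, -1.53 and -0.84 in SNI, and -1.25, -1.28 and -2.63 in SNI+LDN193189. The group means were -1.08 ± 0.30 (SD, n = 3), -1.31 ± 0.41 (SD, n = 3) and -1.72 ± 0.79 (SD, n = 3). Without the third SNI+LDN193189 library its mean was -1.26 ± 0.02 (SD, n = 2). The groups overlap. The mean of SNI+LDN193189 minus that of SNI was -0.41 with all libraries and 0.05 without replicate 3, and its difference from sham was -0.63 and then -0.18. That library had the lowest index in all 6 ways of forming it, by a gap to the next of 0.78 to 2.20. Each way uses genes of groups 10 to 13, by which the library was singled out, so the 6 are not separate evidence.

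The spread between libraries of a group grew along the axis. The SD of log2 CPM within groups had a median of 0.21 over the 7 tested genes of groups 1 to 3, 0.24 over the 10 of groups 4 to 9 and 0.98 over the 10 of groups 10 to 13, beside 0.14 over all 18245 genes. Without SNI+LDN193189 replicate 3 these were 0.19, 0.23, 0.55 and 0.14. The largest were Hoxb13 at 1.94, Hoxc13 at 1.45 and Hoxa13 at 1.31, above 99.9%, 99.6% and 99.5% of all genes tested. The smallest were Hoxd9 at 0.10, Hoxa7 at 0.11 and Hoxb8 at 0.12, below the median of all genes. Without that library Hoxd10 went from 0.89 to 0.31, Hoxd11 from 0.95 to 0.36 and Hoxa11 from 1.00 to 0.35, while Hoxb13 stayed at 1.23 and Hoxc13 at 1.27. Hoxd13 changed least among groups 10 to 13, from 0.93 to 0.92.

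**Figure D4:**
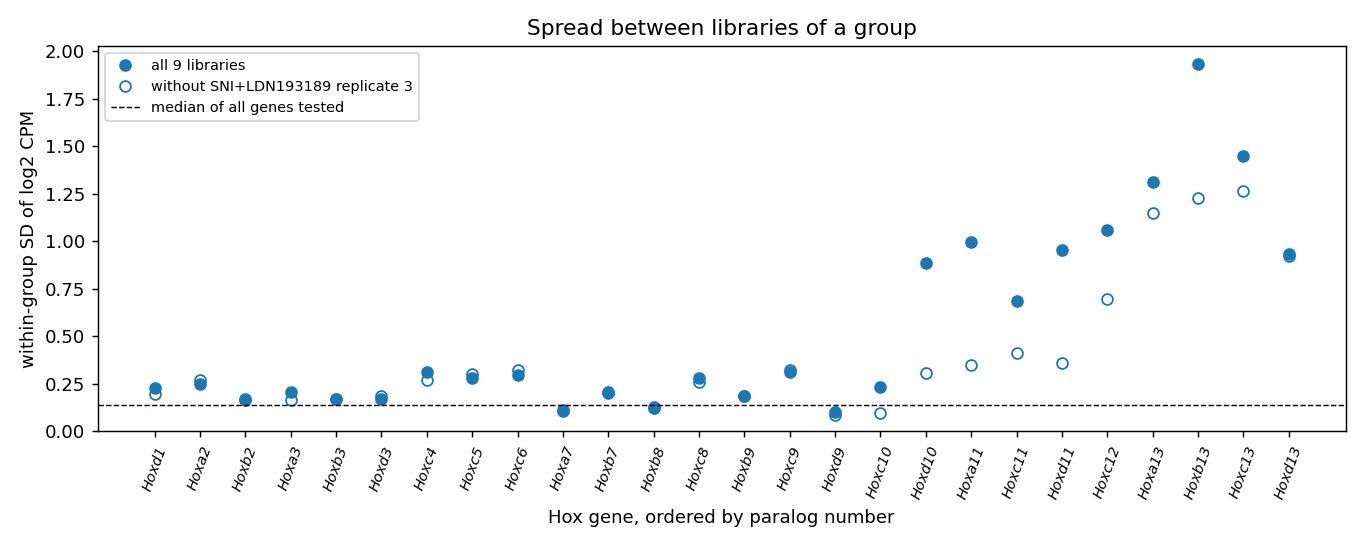
Within-group SD of log2 CPM for 26 of the 27 tested Hox genes, by paralog number, over all 9 libraries (filled) and without SNI+LDN193189 replicate 3 (open), with the median of all genes tested as a dashed line at 0.14. With all libraries the genes from Hoxd10 onward lie above the rest, and without that library those of groups 12 and 13 do.

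Nerve injury was compared with sham first. No Hox gene passed the edgeR quasi-likelihood test with Benjamini-Hochberg adjustment (0 of 27), and neither did any gene of the table, a background of 0%. DESeq2 and limma called 0 of the Hox genes as well. At an unadjusted p under 0.05 edgeR gave 1 higher (3.70% of 27, background 2.02%) and 0 lower (background 3.31%). The number of Hox genes changed with single libraries, and so did that over all genes, 972 of 18245 with all libraries. Without SNI+LDN193189 replicate 3 there were 4 Hox genes (Hoxd9 and Hoxc10 higher, Hoxc11 and Hoxa13 lower), beside 887 of 18629 genes. There were 3 without sham replicate 1 or sham replicate 2, beside 1438 of 18606 and 1678 of 18635 genes. There were 2 without SNI replicate 3, beside 842 of 18585, and 4 with only the 2 groups in the fit, beside 686 of 17855. With all libraries the 1 was Hoxd9, a gene of thoracic and lumbar cord. It was at 9.58, 9.98 and 9.58 FPKM in sham, 10.9, 12.3 and 12.4 in SNI, and 11.5, 10.2 and 9.43 in SNI+LDN193189. Sham and SNI do not overlap in it (1 gene higher without overlap, background 4.12%), with a log2 fold change of 0.30 (SE 0.089, adjusted p = 0.90 by edgeR). Hoxd1, which is expressed in pain-sensing neurons, was the 1 gene lower without overlap (background 5.18%), at 1.08, 0.930 and 0.784 in sham and 0.643, 0.723 and 0.754 in SNI. The next smallest p-values belonged to Hoxa13, Hoxa3, Hoxc8 and Hoxa2, with log2 fold changes of -2.27, 0.31, 0.37 and 0.31. Single libraries moved each of these. Hoxa13 went to -4.97 without SNI replicate 3 and -1.48 without sham replicate 3. Hoxa3 went to 0.44 without sham replicate 1 and 0.21 without sham replicate 3. Hoxa2 went to 0.10 without SNI replicate 2 and 0.19 without sham replicate 3. Hoxc8 went to 0.56 without sham replicate 2 and 0.24 without sham replicate 3. Hoxa13, a gene of the limb tips and hindgut, rests on 90 counts in all, at 0.330, 0.153 and 0.794 FPKM in sham, 0, 0.0204 and 0.234 in SNI, and 0.109, 0.269 and 0 in SNI+LDN193189. Of the 27 genes 12 were above 0 (background 50.1%) and 15 below (background 49.9%), and the median log2 fold change was -0.02 over them, 0.00 over all genes and -0.42 over groups 10 to 13. Markers of other tissues lay mostly lower in SNI, with 0 called by edgeR, and single sham libraries were high in them. Sensory ganglion markers summed to 106, 192 and 109 CPM in sham replicates 1 to 3 and 101 to 115 in SNI. Fibroblast markers summed to 502, 765 and 1360 CPM in sham and 459 to 578 in SNI. Muscle markers were high in sham replicate 1 alone, at 858 CPM. All 10 nerve root markers lay below 0 (median -2.26, 9 at an unadjusted p under 0.05), as did all 11 tested sensory ganglion markers (median -1.42, 1 at that p) and all 12 fibroblast markers (median -0.86, 3 at that p). Of the 12 muscle markers 11 lay below 0 (median -6.63), and 9 of the 12 were at that p. The part of these tissues in the Hox values, Hoxd1 included, was not tested.

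SNI+LDN193189 was then compared with SNI. No Hox gene passed the edgeR test with Benjamini-Hochberg adjustment (0 of 27, background 0.00548%), nor DESeq2 or limma. At an unadjusted p under 0.05, 3 of 27 were lower (11.1%, background 2.19%) and 0 higher (background 1.69%). The number was 5 without SNI+LDN193189 replicate 1, beside 718 of 18633 genes in either direction. With all libraries these were Hoxc4, Hoxb3 and Hoxa3, of groups 3 and 4, which are best known from the hindbrain and neck. Hoxc4 was at 0.327, 0.424 and 0.342 FPKM in SNI and 0.193, 0.112 and 0.228 in SNI+LDN193189, with 0.342, 0.279 and 0.335 in sham. Its log2 fold change was -1.03 (SE 0.30, adjusted p = 0.9996 by edgeR), and -1.25 without replicate 3. Hoxb3 was at 1.61, 1.47 and 1.62 in SNI and 1.25, 1.26 and 1.11 in SNI+LDN193189, with 1.95, 1.43 and 1.41 in sham. Its log2 fold change was -0.37 (SE 0.13), and -0.31 without replicate 3. Hoxa3 was at 0.857, 0.755 and 0.764 in SNI and 0.529, 0.584 and 0.744 in SNI+LDN193189. Its log2 fold change was -0.35 (SE 0.16), and -0.50 without replicate 3. SNI and SNI+LDN193189 did not overlap in these 3 or in Hoxd3, 4 lower of 27 (14.8%, background 6.35%), with 0 higher (background 5.02%). The log2 fold change of Hoxd3 was only -0.09 (SE 0.12), and its sham values, 13.8 to 21.4 FPKM, spanned both groups. None of the 4 has its low values in replicate 3 alone.

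The next smallest p-values in that comparison were those of Hoxd9 and Hoxd13, with log2 fold changes of -0.18 and -1.45, and -0.12 and -1.03 without replicate 3; Hoxd13 was at -2.40 without SNI+LDN193189 replicate 1 and -0.95 without SNI replicate 2. For the genes of groups 10 and 11 the values turned on that library. Hoxd10 went from -0.55 to -0.08, Hoxd11 from -0.63 to -0.15 and Hoxa11 from -0.63 to -0.14 once it was left out. Without SNI replicate 3 they were -0.29, -0.36 and -0.36, and without SNI+LDN193189 replicate 1 they were -0.87, -0.96 and -1.01, and Hoxd10 was -0.83 without SNI+LDN193189 replicate 2. Of the 27 genes 7 were above and 20 below 0, where all genes divided into 49.8% and 50.2%. The median log2 fold change was -0.32 in groups 1 to 3, 0.00 in groups 4 to 9 and -0.43 in groups 10 to 13, and without replicate 3 it was -0.25, -0.04 and -0.08, beside 0.00 over all genes. Of the markers of other tissues, 9 of 10 for nerve root, 9 of 12 for fibroblasts and 10 of 12 for muscle lay above 0 and 7 of 11 for sensory ganglion below, with 0 at an unadjusted p under 0.05, and their part was not tested.

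SNI+LDN193189 against sham shares its libraries with both comparisons above. No Hox gene passed the edgeR test with Benjamini-Hochberg adjustment (0 of 27, background 0.0164%), nor DESeq2 or limma. At an unadjusted p under 0.05, 5 of 27 were lower (18.5%, background 4.49%) and 1 was higher (3.70%, background 4.07%). The lower ones were Hoxb3, Hoxc4, Hoxd13, Hoxd1 and Hoxb2. Without SNI+LDN193189 replicate 3 there were 3, all lower, Hoxb3, Hoxc4 and Hoxb2, beside 1042 of 18629 genes in either direction. In that fit Hoxd13 went from an unadjusted edgeR p of 0.0309 to 0.115 and Hoxd1 from 0.0349 to 0.123. Without sham replicate 1 there were 2 Hox genes, beside 1542 of 18606 genes. Without SNI+LDN193189 replicate 2 there were also 2, beside 1126 of 18629 genes. Hoxb3 had a log2 fold change of -0.39 (SE 0.13, adjusted p = 0.478 by edgeR) and -0.22 without sham replicate 1, and Hoxc4 one of -0.82 (SE 0.30, adjusted p = 0.547 by edgeR). Hoxb2, a hindbrain gene needed for the facial motor nucleus, was at 2.94, 3.33 and 2.87 FPKM in sham, 3.00, 2.42 and 2.37 in SNI, and 2.30, 2.03 and 2.55 in SNI+LDN193189. Sham lies above SNI+LDN193189 without overlap, with a log2 fold change of -0.39 (SE 0.17) and -0.48 without replicate 3. Hoxd1 was at 0.741, 0.555 and 0.476 in SNI+LDN193189 and differed from sham by -0.64 (SE 0.28) on the log2 scale, and by -0.51 without replicate 3. Hoxd13, at 132 counts in all, differed by -1.68 (SE 0.71), by -1.27 without it and by -2.64 without replicate 1.

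The 1 higher gene was Hoxc8, also the 1 higher without overlap (background 6.14%), at a log2 fold change of 0.56 (SE 0.22, adjusted p = 0.571 by edgeR) and 0.39 without replicate 3, where its unadjusted edgeR p went from 0.0401 to 0.111. There were 6 genes that were lower without overlap (22.2%, background 7.42%), namely Hoxd1, Hoxb2, Hoxb3, Hoxc4, Hoxa11 and Hoxd11. The last 2 moved from -0.91 to -0.41 and from -0.94 to -0.46 without replicate 3. Of the 27 genes 6 were above 0 (background 48%) and 21 below (background 52%). The median over groups 10 to 13 was -0.98, and -0.53 without that library. Here too the markers of other tissues lay mostly below 0, with 0 called by edgeR. For nerve root 10 of 10 did (median -1.36), and for sensory ganglion 11 of 11 (median -1.64, 3 at an unadjusted p under 0.05). For fibroblasts 11 of 12 did (median -0.69), and for muscle 12 of 12 (median -4.12, 2 at that p). The high sums of single sham libraries enter this comparison as well, and the part of these tissues was not tested. A joint edgeR test of the 3 groups called 0 of 27 (background 0.00548%), with 3 at an unadjusted p under 0.05 (11.1%, background 5.94%), Hoxc4, Hoxb3 and Hoxd9, and a lowest adjusted p of 0.752 for Hoxc4. With 3 libraries a group the precision differed along the axis, from a standard error of 0.080 on the log2 scale for Hoxb8 to 1.29 for Hoxb13 between SNI and sham.

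The 9 cofactors of the Hox proteins had a summed level of 372 to 387 CPM over the libraries. All 9 were tested, and 0 passed the edgeR test in any comparison, with 1 at an unadjusted p under 0.05 in each. Over all 18245 genes 972 were at that p in SNI against sham and 708 in SNI+LDN193189 against SNI. In SNI+LDN193189 against sham 1561 were, and 1083 in the joint test. Meis2 was at 76.0 to 88.1 CPM, Pbx2 at 41.3 to 47.0, Pknox1 at 35.0 to 42.0, Pknox2 at 32.0 to 37.6, Meis1 at 18.8 to 25.5, Meis3 at 17.9 to 22.7 and Pbx4 at 10.9 to 16.5. Pbx3, which binds DNA as a partner of Hox proteins, was at 39.996, 40.1 and 40.4 CPM in sham, 44.1, 43.3 and 42.4 in SNI, and 46.3, 45.1 and 52.0 in SNI+LDN193189. These 3 groups do not overlap, and SNI+LDN193189 differed from sham by 0.27 on the log2 scale (SE 0.066, adjusted p = 0.329 by edgeR). Over all genes 4.12% were higher without overlap in SNI against sham and 5.02% in SNI+LDN193189 against SNI. In SNI+LDN193189 against sham the share was 6.14%. The share of genes with all 3 groups apart was not counted.

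No member of the regulator, position or cell type lists passed the edgeR test in any comparison. Of the Polycomb proteins, which keep Hox genes silent, 19 of 20 were tested and Cbx6 was listed at 0; the smallest p in the joint test were those of Suz12 (53.6 to 62.0 CPM) and Phc1 (45.3 to 51.8 CPM). Of the Trithorax proteins and histone demethylases, which keep them active, 11 were tested. The smallest p in that test were those of Kmt2a (121 to 158 CPM) and Ash2l (45.3 to 52.5 CPM). Of 17 retinoid and axial patterning genes 12 were tested, and Cyp26c1, Cdx1 and Cdx2 were listed at 0. Rarb (9.82 to 14.1 CPM) and Rxrg (5.44 to 7.02 CPM) had the smallest p in the joint test. The noncoding RNAs of the clusters gave 7 tested genes, with Haglr at 4.02 to 7.01 FPKM and Hoxaas2 at 1.58 to 2.91 FPKM, and the microRNA rows Mir10a, Mir10b, Mir196a-1, Mir196b and Mir615 were listed at 0. Among the 12 genes that flank the clusters, Snx10 (76.0 to 98.7 CPM) and Mtx2 (38.7 to 48.1 CPM) had the smallest p in the joint test. Hindbrain position genes summed to 47.3 to 69.99 CPM, with Egr2 at 1.32 to 20.7 CPM and Atoh1 listed at 0. En2, a midbrain gene, was at 3.49 to 5.72 CPM.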

How the data were processed

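Poly(A)-selected, strand-marked libraries were read as 150 bp pairs, per the labels' protocols; the build is mm10 per the submitters' processing notes, while aligner, counter and annotation are not given in the sources used here. Whole-number read counts per gene symbol form the deposited count table. The deposited FPKM values equal count over library total over a fixed length per gene for all 26285 genes with a count (relative tolerance 1e-09). Hox members and gene lists were chosen with earlier results of these data known. Genes were tested on the deposited counts by edgeR 4.0.16 (R 4.3.3; filterByExpr, TMM factors 0.984 to 1.02, robust quasi-likelihood F test, all 9 libraries in 1 fit with 6 residual degrees of freedom), adjusted by Benjamini-Hochberg over 18245 genes and called under 0.05. Log2 CPM used a prior count of 2. Replicates are labelled as separate biosamples, and p-values measure the spread between these samples. The low-count filter can keep a gene for 1 group, so counts over the 27 tested genes are descriptions. Genes described in full were the highest member of each paralog group, the 5 smallest p per comparison and the extremes of spread. Alternatives were DESeq2 1.42.0, limma 3.58.1 on log2(FPKM + 0.1) or log2(FPKM + 1), other scaling, no filter, a replicate block, leaving out each library, and fits of 2 groups. Symbols were placed on RefSeq GRCm38.p6 (37566 of 40879, all 39 Hox). The test was tried on simulated data. Python 3.11.15, pandas 2.3.3 and matplotlib 3.10.9 made tables and figures. Values of some genes are not reported here, 1 Hox gene among them, which still enters the counts, sums and medians.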

Additional observations from a re-analysis of the deposited data

How the results depend on the processing

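No Hox gene was called under any setting run: edgeR with RLE factors, library totals or no filter, DESeq2, limma, each library left out, fits of 2 groups, and the replicate block. With the block 0 Hox genes were called in all 4 tests, and the lowest adjusted p was 0.440; same-numbered libraries correlated by -0.109 to 0.144 in their deviations, so the numbers were not taken to pair them. The index of SNI+LDN193189 minus sham was -0.63, and -1.40 without the highest gene of each class. Leaving out 1 library gave -0.87 to -0.18 for that difference, -0.65 to 0.05 for SNI+LDN193189 minus SNI and -0.46 to -0.10 for SNI minus sham, so the second has no settled sign: without SNI+LDN193189 replicate 3 it is 0.05. Over the whole table the edgeR calls for SNI against sham went from 0 to 38 without sham replicate 1, and DESeq2 called 24; for SNI+LDN193189 against sham they were 3, 17 without SNI replicate 3, 30 without the filter and 73 by DESeq2, and for SNI+LDN193189 against SNI 1, and 5 by DESeq2. The number of libraries limits groups 12 and 13, where low counts add to a wide spread.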
